A study of Mus musculus with 2 samples.

Results

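The genes described here are the 6 Dlx homeobox genes of the mouse, Dlx1 to Dlx6, and a pair of antisense RNAs of their loci, Dlx6os1 and Dlx1as. They were measured by total RNA-seq in the facial prominence, the tissue that forms the jaws, nose and palate, of B6NCrl mouse embryos at embryonic day 12.5. The members are the rows of the gene tables whose Ensembl ID carries one of these symbols, which gave 8 genes among 43346 mouse gene IDs. Both libraries belong to 1 group: replicate 2 was made from 88 pooled embryos and replicate 1 from 120, males and females mixed, with no genetic change or treatment named in the labels. There was no contrast of conditions, so each value below is a description over 2 libraries and no p-value was computed.

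Dlx genes encode homeodomain transcription factors related to Distal-less of Drosophila. In the mouse they sit as linked pairs, and each pair is transcribed from opposite strands towards its shared centre. In the pharyngeal arches they are known for a nested pattern: Dlx1 and Dlx2 are used along most of the upper and lower jaw primordia, Dlx5 and Dlx6 in the lower jaw, and Dlx3 and Dlx4 nearest its tip. Loss of both Dlx5 and Dlx6 in the mouse turns lower jaw structures towards an upper jaw form. Dlx1, Dlx2, Dlx5 and Dlx6 also act in the ventral forebrain, where they are needed for GABAergic interneurons. Dlx6os1, also called Evf2, is a long noncoding RNA studied mainly there.

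The homeobox, the DNA-binding stretch of 60 residues that defines the family, is printed for the 6 coding genes because it is where a sequencing read could most easily be given to the wrong member. The sequences are the GENCODE M21 coding sequences on the mm10 build, each 180 bases long and written 5′ to 3′ on the strand of the gene. Capitals mark bases that differ from the linked partner, taken as Dlx1 with Dlx2, Dlx3 with Dlx4 and Dlx5 with Dlx6.
Dlx1: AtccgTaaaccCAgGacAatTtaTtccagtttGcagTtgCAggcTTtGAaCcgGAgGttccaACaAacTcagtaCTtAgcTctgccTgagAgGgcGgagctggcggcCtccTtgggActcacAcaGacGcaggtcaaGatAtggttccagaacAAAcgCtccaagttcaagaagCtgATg
Dlx2: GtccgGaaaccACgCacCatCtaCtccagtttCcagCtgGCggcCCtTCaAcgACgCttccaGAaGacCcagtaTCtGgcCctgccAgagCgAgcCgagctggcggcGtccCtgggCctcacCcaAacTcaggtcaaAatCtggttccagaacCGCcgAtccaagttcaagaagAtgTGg
Dlx3: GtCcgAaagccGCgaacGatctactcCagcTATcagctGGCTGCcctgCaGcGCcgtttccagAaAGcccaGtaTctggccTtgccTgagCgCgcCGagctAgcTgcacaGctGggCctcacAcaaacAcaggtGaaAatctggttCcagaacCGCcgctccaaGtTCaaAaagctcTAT
Dlx4: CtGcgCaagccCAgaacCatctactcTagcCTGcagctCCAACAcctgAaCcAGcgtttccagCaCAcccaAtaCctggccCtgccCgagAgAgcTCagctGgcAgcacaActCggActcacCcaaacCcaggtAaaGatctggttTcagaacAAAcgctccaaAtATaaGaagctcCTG
Dlx5: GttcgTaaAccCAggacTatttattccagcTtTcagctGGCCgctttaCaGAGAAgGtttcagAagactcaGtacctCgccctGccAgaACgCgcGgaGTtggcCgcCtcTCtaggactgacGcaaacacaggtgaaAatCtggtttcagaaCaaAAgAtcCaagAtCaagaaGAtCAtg
Dlx6: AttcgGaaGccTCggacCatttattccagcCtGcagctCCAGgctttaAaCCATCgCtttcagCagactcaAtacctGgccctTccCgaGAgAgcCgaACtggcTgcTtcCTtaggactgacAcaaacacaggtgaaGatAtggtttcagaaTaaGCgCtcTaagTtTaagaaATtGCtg
Each homeobox is split over 2 exons. That of Dlx1 lies on chromosome 2, plus strand, at 71531025-71531156 and 71532264-71532311, and that of Dlx2 on the minus strand at 71544877-71544924 and 71545384-71545515. On chromosome 11, that of Dlx3 lies on the plus strand at 95121767-95121898 and 95123409-95123456, and that of Dlx4 on the minus strand at 95141422-95141469 and 95141789-95141920. On chromosome 6, that of Dlx6 lies on the plus strand at 6865140-6865271 and 6867041-6867088, and that of Dlx5 on the minus strand at 6878441-6878488 and 6879526-6879657.

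In these 180 bases, 92 were the same in all 6 genes, and 46 of the 60 residues they encode were the same. Linked partners differed at 47 bases for Dlx1 and Dlx2, 51 for Dlx3 and Dlx4 and 48 for Dlx5 and Dlx6. The closest proteins were not the linked ones. Dlx1 and Dlx6 shared 96.7% of residues, Dlx2 and Dlx5 shared 93.3% and Dlx2 and Dlx3 shared 91.7%, while the linked pairs shared 86.7% (Dlx1 and Dlx2), 80.0% (Dlx3 and Dlx4) and 85% (Dlx5 and Dlx6). The longest exact run that any 2 coding genes shared over their transcripts was 23 bases, well under the fragment length of 100 bases that the deposited effective lengths imply. The deposited posterior SD of the gene count was 0 for Dlx2, Dlx3, Dlx4, Dlx5 and Dlx6 in both libraries, so no reads of these 5 genes were shared out between genes.

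**Figure D1:**
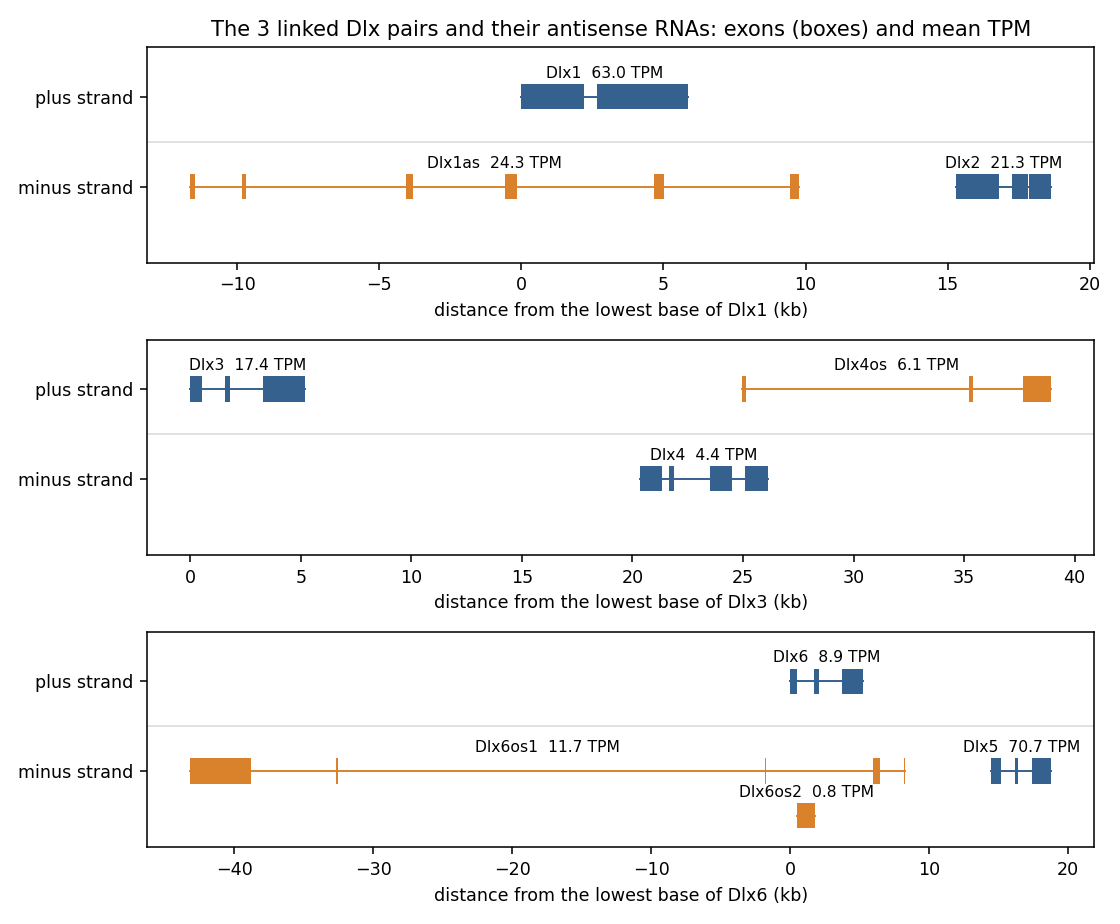
Exons (boxes) of the 3 linked pairs and of their antisense RNAs, drawn by strand against the distance in kb from the lowest base of Dlx1, Dlx3 or Dlx6, with the mean TPM over the 2 libraries. Coding genes are blue and noncoding ones orange. A Dlx1as exon lies within the last exon of Dlx1, whereas the exons of Dlx6os1 lie beside those of Dlx5 and Dlx6.

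Each pair is compact. Dlx1 (ENSMUSG00000041911, chromosome 2, 71528113-71533981, plus strand) and Dlx2 (ENSMUSG00000023391, 71543408-71546754, minus strand) are 9.43 kb apart. Dlx3 (ENSMUSG00000001510, chromosome 11, 95120119-95125296, plus strand) and Dlx4 (ENSMUSG00000020871, 95140447-95146263, minus strand) are 15.2 kb apart. Dlx6 (ENSMUSG00000029754, chromosome 6, 6863334-6868568, plus strand) and Dlx5 (ENSMUSG00000029755, 6877805-6882085, minus strand) are 9.24 kb apart. Dlx6os1 (ENSMUSG00000090063, minus strand) spans 6820189-6871592, across all of Dlx6. Dlx1as (ENSMUSG00000084946, minus strand) spans 71516454-71537891, across all of Dlx1. A second ID with the symbol Dlx6os1, a miscellaneous RNA, had 0 counts in replicate 2 and 1 count in replicate 1 and was left out.

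Among the library-wide facts that touch these values, expected counts summed to 39969716 for replicate 2 and 27890681 for replicate 1. Synthetic spike-ins made up 7.57% (replicate 2) and 6.88% (replicate 1) of all TPM. At an effective length of 1000 bases, 3 counts, the limit that 0 counts allow, equal 0.121 TPM (replicate 2) or 0.172 TPM (replicate 1), and every member was above that. Markers of facial mesenchyme were present at 1 TPM or more in both libraries for 8 of 8 genes, with a median of 94.5 TPM, and markers of surface and oral epithelium for 8 of 8, with a median of 43.8 TPM. The median over all annotated protein-coding genes was 5.24 TPM. Beside these and the list counts below, 13275 of 21474 annotated protein-coding genes had 1 TPM or more in both libraries. In whole tissue, fewer cells that use a gene and less RNA per cell cannot be told apart.

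All 8 members were detected in both libraries, in the same order of level. TPM divides each gene's estimated reads by its effective length, so levels can be set side by side between genes. Dlx5 had the highest level, with 57.08 TPM in replicate 2 and 84.38 TPM in replicate 1. Dlx1 followed with 53.87 TPM in replicate 2 and 72.09 TPM in replicate 1. The ranges of these 2 genes over the libraries overlapped, although Dlx5 was above Dlx1 in each library.

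The middle of the order held Dlx1as, Dlx2 and Dlx3. The antisense RNA Dlx1as had 20.99 TPM in replicate 2 and 27.57 TPM in replicate 1. Dlx2, the linked partner of Dlx1, had 18.04 TPM in replicate 2 and 24.63 TPM in replicate 1, a range that overlapped that of Dlx1as. Dlx3, a regulator of placental and ectodermal development as well as of the distal arch, had 18.02 TPM in replicate 2 and 16.71 TPM in replicate 1. Dlx3 and Dlx2 were 0.02 TPM apart in replicate 2 and 7.92 TPM apart in replicate 1, so their order rests on replicate 1.

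The lowest levels were those of Dlx6os1, Dlx6 and Dlx4. Dlx6os1 had 9.88 TPM in replicate 2 and 13.48 TPM in replicate 1. Dlx6, which acts beside Dlx5 in the lower jaw, had 6.6 TPM in replicate 2 and 11.16 TPM in replicate 1, and overlapped Dlx6os1 in range. Dlx4, the partner of Dlx3, had 4.08 TPM in replicate 2 and 4.68 TPM in replicate 1, below Dlx6 in both. Means and SDs over the 2 libraries were 11.7 ± 2.55 TPM for Dlx6os1 and 24.3 ± 4.65 TPM for Dlx1as (SD, n = 2).

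**Figure D2:**
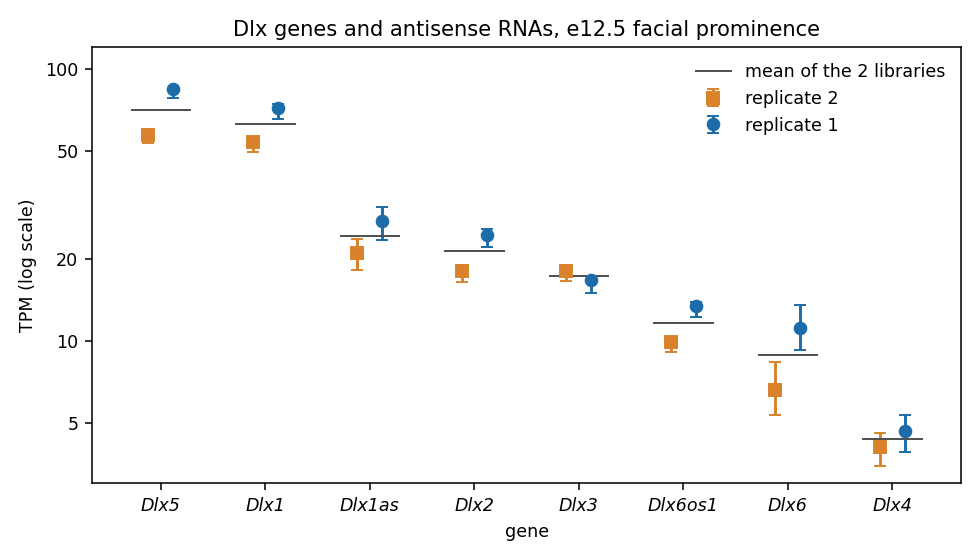
TPM on a log scale for each of the 8 genes in replicate 2 (orange squares) and replicate 1 (blue circles), with the deposited credibility bounds as error bars and the mean as a grey line. Replicate 2 lies below replicate 1 for every gene except Dlx3, and the order of genes is the same in both libraries.

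The estimated reads behind these levels ranged widely. Dlx1 rested on 2616 expected counts in replicate 2 and 2500 in replicate 1, the most of the family. Dlx4 rested on 198 counts in replicate 2 and 163 in replicate 1, and Dlx6 on 183 counts in replicate 2 and 236 in replicate 1. For Dlx6 the exact 95% Poisson interval was 157 to 212 counts in replicate 2 and 207 to 268 in replicate 1. Dlx6os1, whose transcripts are the longest, had 1045 counts in replicate 2 and 1000 in replicate 1 but fewer TPM than Dlx3. No molecular identifiers were used in the tables, so these intervals cover counting error only.

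The 6 coding genes together came to 157.69 TPM (replicate 2) and 213.65 TPM (replicate 1). Dlx5 held 36.2% of that sum in replicate 2 and 39.5% in replicate 1, and Dlx1 held 34.2% in replicate 2 and 33.7% in replicate 1. As pairs, Dlx5 and Dlx6 held 40.4% in replicate 2 and 44.7% in replicate 1, Dlx3 and Dlx4 held 14.0% in replicate 2 and 10.0% in replicate 1, and Dlx1 and Dlx2 held 45.6% in replicate 2 and 45.3% in replicate 1. The Dlx1 and Dlx2 share thus moved least between the pools. These shares sum all transcripts of a gene, and transcripts annotated as retained introns held 79.6% of the Dlx1 TPM in replicate 2 and 80.6% in replicate 1. With protein-coding transcripts only, Dlx1 was at 10.98 TPM in replicate 2 and 13.49 TPM in replicate 1, and the log2 ratio of Dlx5 and Dlx6 over Dlx1 and Dlx2 was 1.28 ± 0.15 (SD, n = 2). Counts not divided by length put the share of Dlx5 and Dlx6 at 31.4% ± 2.86 and that of Dlx1 and Dlx2 at 52.2% ± 0.84 (SD, n = 2).

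For a sense of scale, coding genes other than Dlx1 were each set beside the transcription factor nearest in mean level among 48 listed ones. The nearest to Dlx5 was Twist1, a mesenchymal factor, with 70.81 TPM in replicate 2 and 65.84 TPM in replicate 1. The nearest to Dlx2 was Trp63, a master factor of stratified epithelium, with 20.77 TPM in replicate 2 and 21.28 TPM in replicate 1, and to Dlx3 it was Lhx6 at 15.6 ± 4.02 TPM (SD, n = 2). Dlx6 was nearest to Pou3f3 at 9.27 ± 0.99 TPM and Dlx4 to Sp8 at 4.43 ± 0.44 TPM (SD, n = 2). With 2 libraries no likeness of pattern across samples can be measured, so these neighbours share a level and nothing more was asked of them.

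The genes that flank the pairs had levels of their own. On the low-coordinate side of Dlx1 and Dlx2, Metap1d had 38.64 TPM in replicate 2 and 40.46 TPM in replicate 1. Itga6, an integrin subunit of epithelial basement membrane contacts, lies 199 kb to the other side and had 39.23 TPM in replicate 2 and 34.92 TPM in replicate 1. Beside Dlx3 and Dlx4, Itga3 had 8.66 TPM in replicate 2 and 9.02 TPM in replicate 1, and Tac4 had 0.25 TPM in replicate 2 and 0.05 TPM in replicate 1. Beside Dlx5 and Dlx6, Sem1, a proteasome subunit, had 214.42 TPM in replicate 2 and 236.59 TPM in replicate 1, and Sdhaf3 had 6.03 TPM in replicate 2 and 5.68 TPM in replicate 1. The flanking genes ranged from near 0 to above every Dlx gene.

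Within each linked pair 1 gene dominated at the level of whole genes. Ratios were taken within each library and called when the mean log2 ratio lay beyond 1 or -1 and both libraries had its sign. Dlx1 was 2.99 times Dlx2 in replicate 2 and 2.93 times in replicate 1, a mean log2 ratio of 1.56 ± 0.02 (SD, n = 2). Dlx3 was 4.42 times Dlx4 in replicate 2 and 3.57 times in replicate 1, a mean of 1.99 ± 0.22 (SD, n = 2). Dlx5 was 8.65 times Dlx6 in replicate 2 and 7.56 times in replicate 1, a mean of 3.02 ± 0.14 (SD, n = 2), the widest gap of the 3 linked pairs. All 3 were called, and the ratio of Dlx1 to Dlx2 varied least between the libraries.

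The Dlx1 over Dlx2 ratio depended on which transcripts were counted. Dlx1 has 6 annotated transcripts in the tables, and those annotated as retained introns (Dlx1-203 and Dlx1-206) took most of its TPM. Dlx1-203 held 40.16% in replicate 2 and 41.61% in replicate 1, and Dlx1-206 held 39.46% in replicate 2 and 38.96% in replicate 1. The longest coding transcript, Dlx1-201, held 6.82% in replicate 2 and 6.52% in replicate 1. Together the retained-intron types held 79.6% in replicate 2 and 80.6% in replicate 1. In the annotation, Dlx1-203 (3385 bases) contains the whole second intron, 1107 bases at 71531157-71532263 on chromosome 2. It lacks the first 1834 bases of Dlx1-201 (4111 bases) and starts at 71529947. Whether reads covered that 5′ stretch was not measured. Dlx1-206 (803 bases in 2 exons) has 177 bases that Dlx1-201 lacks, but it holds none of the second intron, which is spliced out of it. Dlx1-203 and Dlx1-206 both contain the whole Dlx1 homeobox printed above, although neither is annotated as coding.

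Restricted to transcripts annotated as protein-coding, Dlx1 had 10.98 TPM in replicate 2 and 13.49 TPM in replicate 1. Dlx2 on the same footing had 16.00 TPM in replicate 2 and 22.01 TPM in replicate 1. Dlx1 was then below Dlx2 in both libraries, with a mean log2 ratio of -0.62 ± 0.12 (SD, n = 2), which does not reach the call, so the direction of this pair turned round. In TPM that direction rests on the annotated types. Dlx1-206 alone, left out here, had 21.26 TPM in replicate 2 and 28.09 TPM in replicate 1, above coding Dlx2 in both. Dlx1-203 alone was above it too. Counting either as coding would put Dlx1 above Dlx2 in TPM. With the expected counts of coding transcripts, not divided by length and chosen after seeing the data, the log2 ratio was -1.03 ± 0.10 (SD, n = 2), past the call in favour of Dlx2. On these counts, adding Dlx1-206 would leave Dlx1 below Dlx2 in both libraries, whereas adding Dlx1-203 would not. Since reads in the shared exons were divided between transcripts by estimate, the split within Dlx1 is less sure than its total.

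To place that share, 7633 protein-coding genes with transcripts of both kinds were used, a choice made after the Dlx1 value was seen. Transcripts not annotated as protein-coding held over 50% of the TPM in both libraries for 12% of these genes (918), and their median share was 14.8%. Dlx1, at 79.6% in replicate 2 and 81.3% in replicate 1, was 1 of the 2.82% of genes with a mean share at or above its own. The other members were nearer the median. Dlx2 had 11.4% in replicate 2 and 10.6% in replicate 1, in Dlx2-202, a retained intron. Dlx4 had 32.4% in replicate 2 and 27.6% in replicate 1, in Dlx4-202, a processed transcript. Dlx6 had 39.8% in replicate 2 and 26.0% in replicate 1, in Dlx6-204, a retained intron that rested on 18.5 expected counts in replicate 2 and 14.4 in replicate 1.

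**Figure D3:**
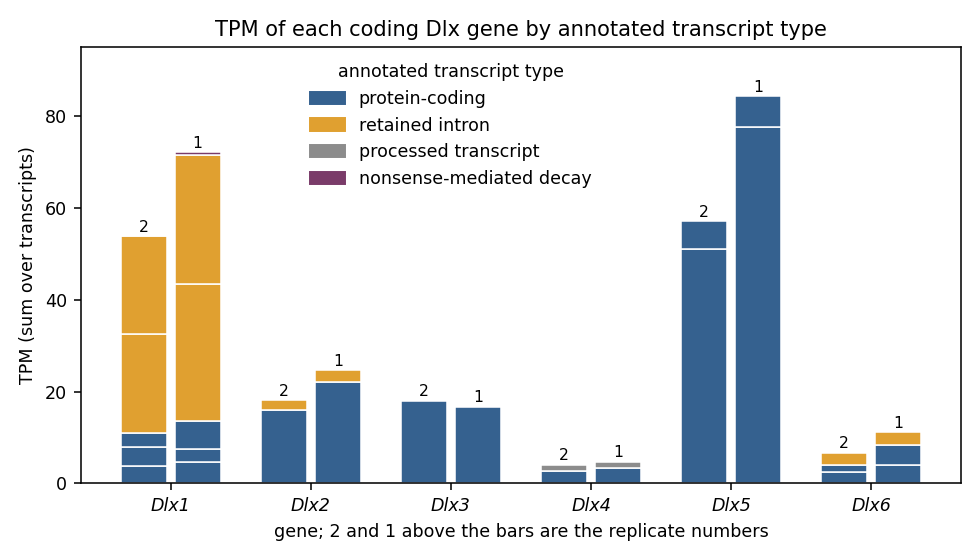
TPM of each coding gene as stacked bars, 1 segment per transcript coloured by its annotated type, for replicate 2 (left) and replicate 1 (right) of each gene. Retained-intron types make up most of the Dlx1 bars, the coding segments of Dlx1 are shorter than that of Dlx2 in each library, and Dlx3 and Dlx5 have coding types only.

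Dlx5 and Dlx3 had simpler makeups. Dlx3 has 1 transcript in the tables. Dlx5-201 held 89.29% of Dlx5 in replicate 2 and 91.97% in replicate 1, and Dlx5-202 held 10.71% in replicate 2 and 8.03% in replicate 1. Both are annotated as coding, but in the middle exon Dlx5-202 lacks 82 bases that Dlx5-201 has, at 6879629-6879710 on chromosome 6. These include the first 29 bases of the Dlx5 homeobox printed above, and 82 leaves a remainder of 1 when divided by 3. Dlx6 was split between its coding transcripts: Dlx6-202 held 36.78% in replicate 2 and 36.41% in replicate 1, while Dlx6-203 held 23.35% in replicate 2 and 37.64% in replicate 1. Dlx6-201 was listed at 0 in both libraries. Restricted to coding transcripts, Dlx6 had 3.97 TPM in replicate 2 and 8.26 TPM in replicate 1, and Dlx5 over Dlx6 gave a log2 ratio of 3.60 ± 0.35 (SD, n = 2).

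Between pairs, the sum of Dlx5 and Dlx6 was 63.68 TPM in replicate 2 and 95.54 TPM in replicate 1, and that of Dlx1 and Dlx2 was 71.91 TPM in replicate 2 and 96.72 TPM in replicate 1. The log2 ratio was -0.18 in replicate 2 and -0.02 in replicate 1 and was not called. With coding transcripts only it became 1.28 ± 0.15 (SD, n = 2), past the call in favour of Dlx5 and Dlx6. With expected counts of coding transcripts, not divided by length, it was 0.60 ± 0.13 (SD, n = 2), the same direction without the call. The sum of Dlx3 and Dlx4 was 22.10 TPM in replicate 2 and 21.39 TPM in replicate 1, with a log2 ratio to Dlx1 and Dlx2 of -1.94 ± 0.34 (SD, n = 2), which was called. With coding transcripts only it was -0.60 ± 0.31 (SD, n = 2) and not called.

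**Figure D4:**
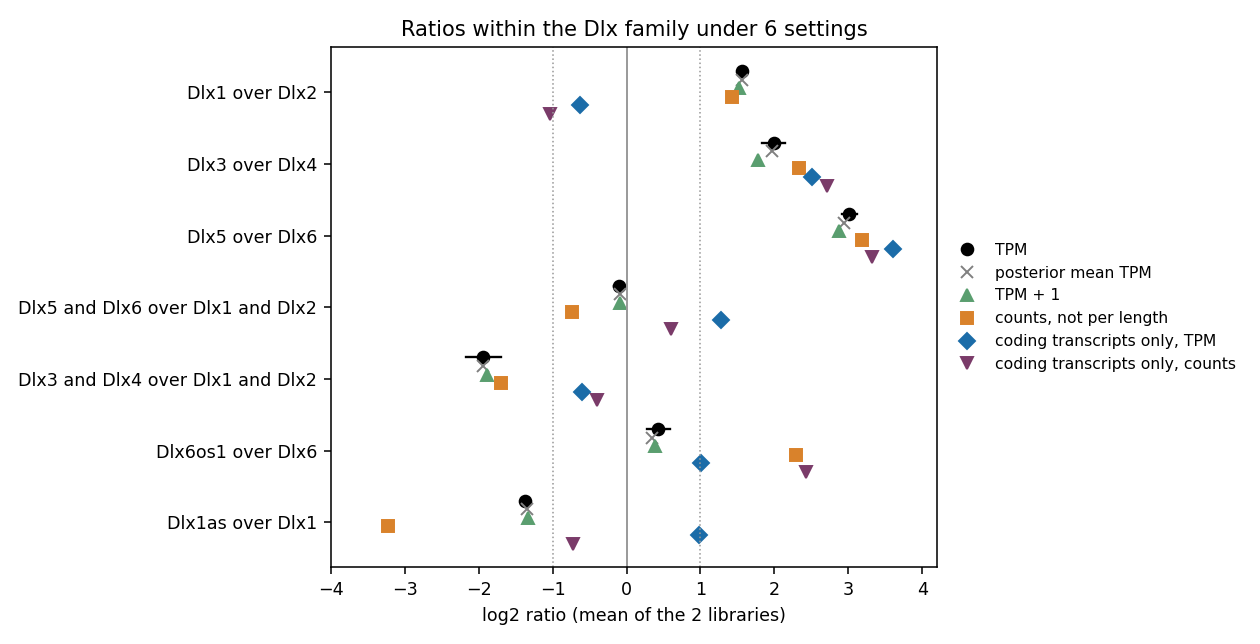
Mean log2 ratio over the 2 libraries for 7 ratios within the family, under 6 settings (symbols); the black line joins the values of the single libraries for whole-gene TPM, and dotted lines mark the call at 1 and -1. The blue diamonds, coding transcripts only, fall on the other side of 0 from the black circles for Dlx1 over Dlx2, for Dlx5 and Dlx6 over Dlx1 and Dlx2, and for Dlx1as over Dlx1.

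The antisense RNAs stood differently to their coding neighbours. Dlx6os1 was 1.5 times Dlx6 in replicate 2 and 1.21 times in replicate 1, a log2 ratio of 0.43 ± 0.22 (SD, n = 2) that was not called. With coding transcripts of Dlx6 only it was 1.01 ± 0.43 (SD, n = 2), just past the call. On expected counts not divided by length it was 2.30 ± 0.30 (SD, n = 2), past the call, but this setting favours the longer gene. The effective length of Dlx6os1 was 4268 bases in replicate 2 and 4246 in replicate 1. That of Dlx6 was 1119 bases in replicate 2 and 1210 in replicate 1. No exon of Dlx6os1 overlaps an exon of Dlx5 or Dlx6. Its count had a deposited posterior SD of 1.22 in replicate 2 and 1.12 in replicate 1, against counts of 1045 and 1000, so its level owes little to shared reads. Of its 2 transcripts, Dlx6os1-202 held 60.31% in replicate 2 and 49.02% in replicate 1, and Dlx6os1-201 held 39.69% in replicate 2 and 50.98% in replicate 1. In replicate 1 the order of the 2 was not resolved: their expected counts were 501.84 for Dlx6os1-202 and 498.16 for Dlx6os1-201, and their deposited TPM bounds, 4.68 to 7.70 and 5.34 to 8.53, overlapped. In replicate 2 the bounds, 4.83 to 6.89 for Dlx6os1-202 and 2.78 to 4.86 for Dlx6os1-201, overlapped at their edges.

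RefSeq lists 2 starts for Dlx6os1 that lie 7.85 kb apart, and a promoter window of 250 bases before to 50 bases after each is printed because both transcripts were measured at similar levels. The nearest GENCODE M21 transcript starts lie 2059 bases from the upstream RefSeq start and 92 bases from the downstream one. The windows are on the minus strand of GRCm38.p6, at chr6:6869484-6869783 for the upstream start and at chr6:6861634-6861933 for the downstream start. Capitals mark TAATT and its reverse complement AATTA, the core letters that homeodomain proteins including Dlx proteins are known to bind.
Dlx6os1 upstream start: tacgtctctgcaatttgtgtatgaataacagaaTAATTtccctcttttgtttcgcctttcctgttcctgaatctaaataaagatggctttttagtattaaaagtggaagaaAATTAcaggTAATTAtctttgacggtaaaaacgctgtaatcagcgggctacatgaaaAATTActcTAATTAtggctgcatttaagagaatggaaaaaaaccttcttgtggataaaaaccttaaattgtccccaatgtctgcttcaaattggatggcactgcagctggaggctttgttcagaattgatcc
Dlx6os1 downstream start: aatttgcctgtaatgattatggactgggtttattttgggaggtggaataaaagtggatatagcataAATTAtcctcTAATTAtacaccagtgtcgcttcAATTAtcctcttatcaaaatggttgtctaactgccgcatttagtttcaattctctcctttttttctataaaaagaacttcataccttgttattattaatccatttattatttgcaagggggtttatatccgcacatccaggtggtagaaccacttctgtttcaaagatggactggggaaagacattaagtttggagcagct
The upstream window holds 7 starts of these letters over both strands and the downstream window holds 4, where the palindrome TAATTA counts once on each strand and occurs 2 times in the upstream window and 1 time in the downstream one. Of 32851 RefSeq promoter windows of this length, 27.0% hold TAATT on either strand, 5.29% hold TAATTA, 1.65% hold 4 or more starts and 0.14% hold 7 or more. The windows have a GC content of 35.7% and 35.3%, against a median of 52.7% over all windows, and no adjustment was made for that. The Dlx1 and Dlx2 windows, with a GC content of 69.3% and 66.3%, hold none. Of the 8 members, 3 had a window in the RefSeq table. A match is a description of letters and does not show binding.

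Dlx1as was below Dlx1 at the level of whole genes, at 0.39 times Dlx1 in replicate 2 and 0.38 times in replicate 1, a log2 ratio of -1.37 ± 0.02 (SD, n = 2) that was called. Against the coding transcripts of Dlx1 alone it was higher, with a log2 ratio of 0.98 ± 0.07 (SD, n = 2), which does not reach the call, and on counts of those transcripts it was -0.73 ± 0.05 (SD, n = 2), also short of it. On expected counts of whole genes, not divided by length, it was -3.22 ± 0.04 (SD, n = 2), a setting that favours the longer Dlx1. The higher TPM of Dlx1as over coding Dlx1 also rests on annotated types. Dlx1-206 alone, left out there, had 21.26 TPM in replicate 2 and 28.09 TPM in replicate 1, just above Dlx1as in both. The effective length of Dlx1as was 548 bases in replicate 2 and 546 in replicate 1. That of Dlx1 was 1959 bases in replicate 2 and 1985 in replicate 1. Dlx1as-202 held 84.69% of Dlx1as in replicate 2 and 85.34% in replicate 1, and 335 of its 647 bases lie inside the last exon of Dlx1, at 71532784-71533118 on chromosome 2. There the counts of the 2 genes were linked. The posterior SD was 9.95 for both genes in replicate 2 and 9.20 for both in replicate 1. Their counts summed to whole numbers to 2 decimals, 2901 in replicate 2 and 2763 in replicate 1. Reads of the shared stretch were thus divided between genes on opposite strands by estimate, and the level of Dlx1as cannot be told apart from Dlx1 reads over those bases.

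Other antisense genes of these loci showed no such sharing. Dlx4os had 5.96 TPM in replicate 2 and 6.33 TPM in replicate 1, and Dlx6os2 had 0.55 TPM in replicate 2 and 0.96 TPM in replicate 1. Their longest exon overlaps with Dlx4 and Dlx6 are 79 and 73 bases, shorter than a fragment of 100 bases, and the posterior SD of the counts was 0. Dlx4os was above Dlx4 in both libraries.

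Most members had fewer TPM in replicate 2 than in replicate 1, by amounts that are set beside those of all genes tested. In log2((TPM + 0.1)/(TPM + 0.1)) of replicate 2 over replicate 1, Dlx6 was at -0.75, Dlx5 at -0.56, Dlx2 at -0.45, Dlx6os1 at -0.44, Dlx1 at -0.42, Dlx1as at -0.39 and Dlx4 at -0.19, while Dlx3 was at 0.11. Of the 8 members, 7 were lower in replicate 2, where 48.8% of 18246 genes with 10 or more expected counts in a library were lower. One member, Dlx6, was past 1.5-fold, in the lower direction, where 9.32% of genes were past it in either direction and 4.51% were past it and lower. Of all genes tested, 6.08% were at least as far from 0 as Dlx6, 9.96% as Dlx5, 14.0% as Dlx2 and 15.2% as Dlx1. For Dlx6os1 the share was 14.1%, for Dlx1as 16.6%, for Dlx4 33.7% and for Dlx3 52.7%. In the lower direction alone, 2.83% of genes were as low as Dlx6, 4.86% as Dlx5, 7.04% as Dlx2 and 7.10% as Dlx6os1. The share was 7.71% for Dlx1, 8.38% for Dlx1as, 17.2% for Dlx4 and 73.5% for Dlx3. With a pseudocount of 1 TPM, 460 of the 18246 genes were past 1.5-fold, and Dlx6, at -0.68, still was. With 1 library per pool these differences have no replicate check.

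Counting error is smaller than most of these differences. The exact 95% counting interval of the TPM ratio of replicate 2 over replicate 1 was 0.485 to 0.720 for Dlx6, 0.634 to 0.721 for Dlx5 and 0.707 to 0.790 for Dlx1. It included 1 for Dlx3, at 0.982 to 1.19, and for Dlx4, at 0.705 to 1.08. Scaling by the spike-ins moved the median of all genes to -0.13 and put Dlx3 at -0.03 and Dlx5 at -0.70, so Dlx3 changed sign and 2 members were past 1.5-fold. All members except Dlx3 were lower in replicate 2 under every scaling tried.

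**Figure D5:**
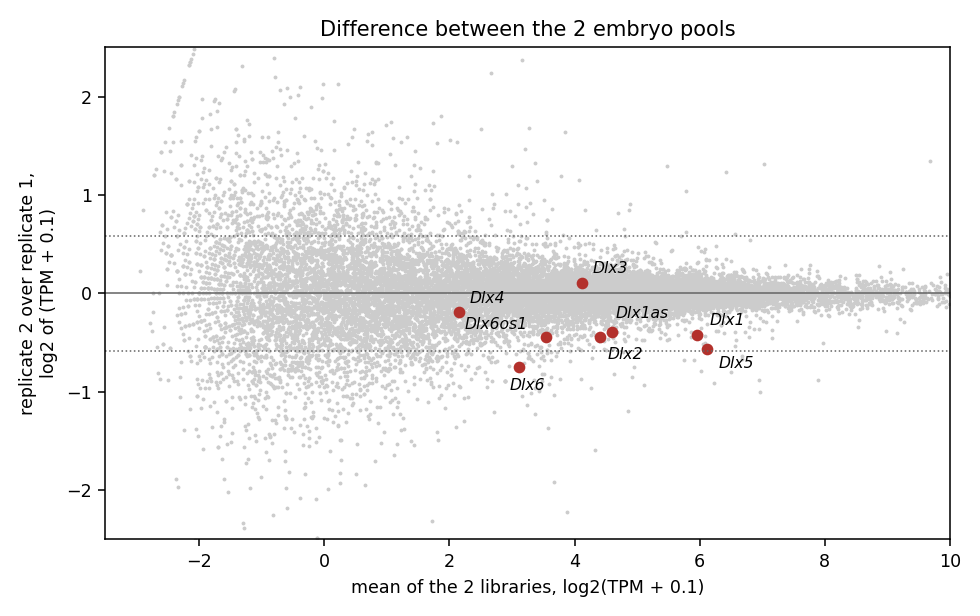
Log2 difference of TPM (plus 0.1) of replicate 2 over replicate 1 against the mean level, for 18246 genes (grey, of which 140 fall outside the axes) and the 8 members (red). Dotted lines mark 1.5-fold, and Dlx6 is the member below the lower line.

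Genes that act around the Dlx genes were counted from written lists. Of 22 upstream regulators and partners, including the endothelin signal that switches on Dlx5 and Dlx6 in the lower jaw, 21 had 1 TPM or more in both libraries, with a median of 30.7 TPM. The highest were Msx1 with 325.34 TPM in replicate 2 and 336.19 TPM in replicate 1, and Fgfr1 with 130.64 TPM in replicate 2 and 130.82 TPM in replicate 1. The lowest were Edn1, the ligand itself, with 1.22 TPM in replicate 2 and 1.71 TPM in replicate 1, and Sall3 with 0.55 TPM in replicate 2 and 1.01 TPM in replicate 1. In this list 2 genes were past 1.5-fold and lower in replicate 2 and none was past it and higher. Beside these and the list counts below, 4.51% of all genes tested were past it and lower, and 9.32% in either direction.

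Of 13 genes known to depend on Dlx5 and Dlx6 in the lower jaw, a list that holds Dlx3 and Dlx4, all 13 had 1 TPM or more, with a median of 17.4 TPM. Plagl1 was highest with 112.88 TPM in replicate 2 and 100.33 TPM in replicate 1, followed by Gsc with 38.90 TPM in replicate 2 and 53.66 TPM in replicate 1. Rgs5 was lowest with 1.79 TPM in replicate 2 and 2.02 TPM in replicate 1, followed by Gbx2 with 1.79 TPM in replicate 2 and 2.59 TPM in replicate 1. Past 1.5-fold, 1 gene was higher in replicate 2 and 0 were lower. Of 11 genes listed for the upper jaw or proximal arch, all 11 had 1 TPM or more, with a median of 25.5 TPM. These genes need not be confined to those parts, and where in the face they were used was not measured. Barx1, a factor of molar-forming mesenchyme, had 88.55 TPM in replicate 2 and 177.40 TPM in replicate 1, and Pitx1 had 81.42 TPM in replicate 2 and 129.42 TPM in replicate 1. The lowest were Pou3f3, given above, and Cyp26a1, a retinoic acid-degrading enzyme, with 8.63 TPM in replicate 2 and 10.53 TPM in replicate 1. Barx1 and Pitx1 were the 2 genes of this list past 1.5-fold, both lower in replicate 2.

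Markers of other tissues that use Dlx genes were also counted. Of 13 ventral forebrain and GABAergic genes, 8 had 1 TPM or more in both libraries, near the share of all coding genes (13275 of 21474). The median was 2.02 TPM, and the list's sum was 69.85 TPM in replicate 2 and 87.88 TPM in replicate 1. The highest were Isl1 with 36.92 TPM in replicate 2 and 45.96 TPM in replicate 1, and Lhx6 with 12.78 TPM in replicate 2 and 18.46 TPM in replicate 1, and both are also used in the arches. The lowest were Gsx2 with 0.49 TPM in replicate 2 and 0.66 TPM in replicate 1, and Slc32a1, the vesicular GABA transporter, with 0.04 TPM in replicate 2 and 0.03 TPM in replicate 1. All but Slc32a1 had the 10 expected counts needed, which left 12 genes. Of these 12, 8 were lower in replicate 2, where 48.8% of all genes tested were lower, with 2 past 1.5-fold lower and 1 past it higher. The part of this list in the lower Dlx levels of replicate 2 was not tested.

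The remaining lists were smaller. Of 6 dorsal forebrain and other brain genes, 1 had 1 TPM or more in both libraries, and the list's sum was 4.18 TPM in replicate 2 and 6.48 TPM in replicate 1. Past 1.5-fold, 4 of these 6 genes were lower in replicate 2 and 1 was higher, with a median log2 difference of -1.005 for the list, beside 0.0028 over all genes tested. Its highest were Olig2 at 1.96 ± 0.76 TPM and Emx1 at 1.03 ± 0.66 TPM, and its lowest Sox1 at 0.42 ± 0.01 TPM and Eomes at 0.30 ± 0.33 TPM (SD, n = 2). Of 6 olfactory placode and otic vesicle genes, 5 had 1 TPM or more, and the list's sum was 209.89 TPM in replicate 2 and 244.28 TPM in replicate 1, with 1 gene past 1.5-fold and lower in replicate 2 and 0 higher. Its lowest were Fbxo2 at 3.63 ± 0.38 TPM and Omp, the mature olfactory neuron marker, at 0.37 ± 0.01 TPM, and its highest Gap43 at 105 ± 9.45 TPM (SD, n = 2). Oc90, an otoconial protein gene of the otic vesicle named here after its values were seen, had 18.94 TPM in replicate 2 and 43.44 TPM in replicate 1. Of 5 placodal and dental epithelium genes, 3 had 1 TPM or more, led by Sostdc1 at 51.9 ± 2.09 TPM, with Edar at 1.00 ± 0.18 TPM and Fgf20 at 0.72 ± 0.03 TPM lowest (SD, n = 2). The sum of that list was 101.64 TPM in replicate 2 and 99.14 TPM in replicate 1, and 0 of its genes were past 1.5-fold, as in the facial mesenchyme and the surface and oral epithelium lists. The part of the otic and brain lists in the Dlx differences between the pools was not tested.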

How the data were processed

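Total RNA-seq of 2 libraries was used, 1 per pool of embryos, with 10 ng of RNA above 200 nucleotides in each. Per the labels, RNA was extracted with a mirVana kit and ERCC spike-ins were added, and a SMARTer Ultra Low kit manual is linked. Strand is not stated. The series title says that another series has replaced it. Reads were placed on mm10 with GENCODE M4, per the deposited notes. The aligner and the quantifier were not named (not given in the sources used here). The authors deposited, for each gene and transcript, an expected count (rounded to whole numbers for scaling factors only), a TPM, an FPKM, posterior means, posterior SDs and bounds, and for transcripts a percent of the gene, per the file headers. FPKM served only as an alternative.

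Gene symbols, types and positions were taken from GENCODE M21, where 42462 of 43346 mouse IDs were found; some transcript models differ between M4 and M21 (Dlx6os1-201 has 4248 bases in the tables and 4608 in M21). RefSeq gave the promoter windows. The members and lists were chosen with earlier results of these data known. The genes named are the members, the flanking coding genes, the nearest listed transcription factor, and the 2 highest and 2 lowest of each list; others are said to be chosen later, and some values that this rule would name are not reported here. Ratios were called past 1 in log2. Library differences used a pseudocount of 0.1 TPM, a minimum of 10 expected counts in at least 1 library and a 1.5-fold threshold. Nothing says that the pools came from separate litters or days. Scaling factors came from edgeR 4.0.16 and DESeq2 1.42.0 under R 4.3.3. Other steps used Python 3.11.15, numpy 2.4.6, pandas 2.3.3, scipy 1.17.1 and matplotlib 3.10.9. The formulas of the difference and the ratio were tested on simulated counts, which did not cover the call or the split between transcripts.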

Additional observations from a re-analysis of the deposited data

How the results depend on the processing

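All values are log2 ratios, means of the 2 libraries, unless a count is named. Each library alone kept the direction and the call of all 7 ratios. With protein-coding transcripts only, Dlx1 over Dlx2 turned to -0.62 and Dlx1as over Dlx1 to 0.98, both short of the call. In that setting Dlx5 and Dlx6 over Dlx1 and Dlx2 was 1.28, Dlx3 and Dlx4 over Dlx1 and Dlx2 was -0.60, Dlx3 over Dlx4 was 2.51, Dlx5 over Dlx6 was 3.60 and Dlx6os1 over Dlx6 was 1.01. By construction this setting leaves out the retained-intron types of Dlx1, Dlx2 and Dlx6, a nonsense-mediated decay type of Dlx1 and the processed transcript of Dlx4.

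With expected counts not divided by length, Dlx1 over Dlx2 was 1.43, Dlx3 over Dlx4 was 2.33, Dlx5 over Dlx6 was 3.19, Dlx5 and Dlx6 over Dlx1 and Dlx2 was -0.74, Dlx6os1 over Dlx6 was 2.30 and Dlx1as over Dlx1 was -3.22. Other settings were chosen after seeing the data. Counts of coding transcripts gave -1.03 for Dlx1 over Dlx2, 2.71 for Dlx3 over Dlx4, 3.31 for Dlx5 over Dlx6, 0.60 for Dlx5 and Dlx6 over Dlx1 and Dlx2, -0.40 for Dlx3 and Dlx4 over Dlx1 and Dlx2, 2.42 for Dlx6os1 over Dlx6 and -0.73 for Dlx1as over Dlx1. Counts not assigned to transcripts annotated as retained introns gave, in the same order, -1.02, 2.33, 3.31, 0.59, -0.35, 2.42 and -0.74. On log2(TPM + 1), Dlx1 over Dlx2 was 1.52, Dlx5 over Dlx6 was 2.87 and Dlx1as over Dlx1 was -1.34, and with posterior mean TPM the last was -1.35.

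Between the libraries, 1700 of 18246 genes were past 1.5-fold, against 460 with a pseudocount of 1 TPM, 5291 with no filter and 551 past 2-fold. Of the 8 members, 2 were past 1.5-fold under spike-in scaling and 0 were past 2-fold. There was no test across libraries, and the depth behind Dlx4 and Dlx6, the lowest of the 8 members in both libraries, limits how finely their transcripts can be divided. No paired analysis was possible because there is only 1 group.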
